A study of Mus musculus with 34 samples.

Results

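The genes described here carry the names Cfap (cilia and flagella associated protein), Efcab (EF-hand calcium-binding domain) or Iqc (IQ motif containing), and were followed in cultured mouse ependymal cells that lacked one of 3 RFX transcription factors. They were chosen by name and a count minimum, and no knockout effect entered that rule. The deposited table of 21647 genes held 57 rows whose GENCODE M21 symbol began with Cfap or Efcab and a number, or with Iqc. A symbol with letters after the number was taken as a match, which bears on Cfap97d1 and Cfap97d2 alone. Set aside were 11 of them (Cfap45, Cfap46, Cfap52, Cfap53, Cfap54, Cfap73, Cfap74, Cfap100, Cfap221, Efcab1 and Iqcg), and of the other 46 genes, 37 had at least 10 counts in at least 4 of the 34 libraries. These 37 comprised 20 Cfap, 10 Efcab and 7 Iqc genes. The 9 genes not kept (Cfap97d1, Efcab3, Iqcf1, Iqcf3, Iqcf4, Iqcf5, Iqcf6, Iqcj and Iqcm) did not pass 8 counts in any library, and the annotated genes Cfap99 and Iqcn were not analysed here.

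A motile cilium beats through an axoneme of doublet microtubules around a central pair. Proteins inside the doublet wall stiffen it, dynein arms slide the doublets, radial spokes and the nexin link regulate the arms, and a transition zone at the base controls entry of proteins. Multiciliated ependymal cells line the brain ventricles and move cerebrospinal fluid. RFX factors bind a DNA element called the X-box in front of many ciliary genes, and in multiciliated cells they act with the forkhead factor FOXJ1.

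The cells were grown from lateral ventricular walls of mouse embryos (E18.5), brought to confluency and kept without serum for 4 days. The groups were Rfx1-/- cells (4 libraries) and their Rfx1+/+ siblings (4), Rfx2-/- cells (6) and Rfx2+/+ siblings (8), and Rfx3-/- cells (6) and Rfx3+/+ siblings (6), called knockout and wild type of each line below. The strain label is C57BL/6, and sample titles carry the tag OF1, which the labels do not explain. No label says that replicates came from separate embryos or cultures, so p-values measure the spread between these libraries, and no label gives a sequencing batch. Total counts ran between 18.2 and 22.5 M in Rfx1 knockout and between 19.7 and 50.9 M in Rfx1 wild-type libraries. They ran between 27.4 and 33.4 M in Rfx2 knockout and between 29.1 and 40.1 M in Rfx2 wild-type libraries, and between 23.1 and 43.1 M in Rfx3 knockout and between 24.7 and 53.4 M in Rfx3 wild-type libraries. Levels are given in CPM, counts scaled to library size with TMM factors within a line, and differences as knockout over wild type on the log2 scale from edgeR's quasi-likelihood test. A gene is said to have fallen or risen when its p-value, adjusted by Benjamini-Hochberg over all genes tested in that line, was below 0.05.

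The targeted genes were lower in the cells named for them. Rfx1 averaged 25.0 ± 4.95 CPM in Rfx1 knockout and 65.9 ± 10.4 CPM in Rfx1 wild-type cells (SD, n = 4 each), lower by 1.4 on the log2 scale with an edgeR adjusted p of 0.0687. Rfx2 averaged 49.0 ± 4.42 CPM in Rfx2 knockout (n = 6) and 107 ± 16.0 CPM in Rfx2 wild-type cells (n = 8, SD), and Rfx3 averaged 39.9 ± 9.22 CPM in Rfx3 knockout and 176 ± 18.2 CPM in Rfx3 wild-type cells (SD, n = 6 each). In the Rfx1 line the highest knockout had 30.1 CPM and the lowest wild type 51.9 CPM. Rfx2 and Rfx1 were also lower in Rfx3 knockout cells: Rfx2 was at 80 ± 18.2 CPM, against 118 ± 4.77 CPM in wild types, and Rfx1 at 47.3 ± 7.41 CPM, against 64.6 ± 6.79 CPM (SD, n = 6 each, edgeR adjusted p = 0.00861 and 0.0111).

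Libraries of a group were not alike, which bears on the results below. In the Rfx3 knockout, Foxj1, the regulator of motile ciliogenesis, was at 1480, 1435 and 1378 CPM in replicates 1 to 3 and at 763, 764 and 680 CPM in replicates 4 to 6, against 1437 to 1730 CPM in Rfx3 wild types. Mcidas, which starts the multiciliated programme, was at 93.7, 90.4 and 65.9 CPM in replicates 1 to 3 and at 20, 22.5 and 13.3 CPM in replicates 4 to 6, against 69.2 to 112 CPM in wild types. Replicates 4 to 6 lay far below the wild-type range for both genes, replicate 3 lay just below it for both, and replicate 2 just below it for Foxj1. In the Rfx2 line Foxj1 spanned 638 to 815 CPM in knockouts and 803 to 1507 CPM in wild types, of which replicates 1 and 5 were lowest at 803 and 946 CPM. In bulk RNA, fewer cells of a type and less RNA per cell cannot be told apart.

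Transcript length set one library apart. Over 13270 genes with an average of at least 1 CPM, the rank correlation of exon length with the log2 difference from the wild-type mean was −0.58 in Rfx3 knockout replicate 3, against −0.24 to 0.20 in the other 33 libraries, so long genes were low in it. Over 35 of the genes described here the same correlation was −0.41. Oligodendrocyte-lineage RNA also varied: Pdgfra reached at least 10 CPM in 13 libraries, namely Rfx3 knockout replicates 1, 4, 5 and 6, Rfx2 knockout replicates 1 to 3, Rfx1 knockout replicate 2, Rfx3 wild type 6, Rfx2 wild types 1 to 3 and Rfx1 wild type 3. The counts of genes that fell are given with and without these libraries.

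Lists of cell type markers were counted in the same way. Over all genes tested, 18.4% fell and 13.9% rose in the Rfx2 line, and 12.9% fell and 10.6% rose in the Rfx3 line. Counts of 1 or 2 markers below are to be read beside these shares. Of 12 multiciliated-cell markers, 11 fell in the Rfx2 knockout and 5 in the Rfx3 knockout, and their summed level was 1238 to 1674 CPM in Rfx2 knockouts and 1575 to 3527 CPM in Rfx2 wild types, and 1078 to 3032 CPM in Rfx3 knockouts and 3212 to 3877 CPM in Rfx3 wild types. Of 4 other ependymal markers, 2 fell in the Rfx2 and 1 in the Rfx3 knockout. Of 8 oligodendrocyte-lineage markers, 1 rose in the Rfx2 and 2 rose in the Rfx3 knockout, with sums of 112 to 460 CPM in Rfx2 knockouts and 114 to 335 CPM in Rfx2 wild types, and of 208 to 609 CPM in Rfx3 knockouts and 123 to 357 CPM in Rfx3 wild types. Of 6 astrocyte markers 3 rose in the Rfx2 and 1 rose in the Rfx3 knockout, with sums of 5969 to 11192 CPM in Rfx2 knockouts and 4751 to 8546 CPM in Rfx2 wild types, and of 2431 to 5286 CPM in Rfx3 knockouts and 2319 to 4908 CPM in Rfx3 wild types. Of 8 neuronal markers 1 fell and 2 rose in the Rfx3 knockout, none of 6 microglial markers was called in any line, and of the choroid plexus markers 2 fell in the Rfx3 knockout, while Kl had at most 2 counts in a library. No marker of these lists passed the test in the Rfx1 line, where 0.00723% of all genes fell and 0% rose. The part of cell makeup in the results below was not tested.

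In wild-type cells the 37 genes differed widely in level per kb of exon. Cfap36, whose product binds the small GTPase ARL3, was highest in the Rfx3 and Rfx1 lines, at 95.4 and 86.1 CPM per kb, and second in the Rfx2 line at 65.7 CPM per kb. Cfap126 (Flattop, a protein of the doublet wall and of basal body docking) had 89.8, 79.0 and 73.6 CPM per kb in the wild types of the Rfx3, Rfx1 and Rfx2 lines and exchanged places with Cfap36 in the Rfx2 line; neighbours in this order were not tested against each other. At the other end stood Efcab8 with 0.058 to 0.089 CPM per kb, Efcab5 with 0.15 to 0.25 CPM per kb and Efcab9, a subunit of the sperm calcium channel CatSper, with 0.32 to 0.45 CPM per kb.

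**Figure D1:**
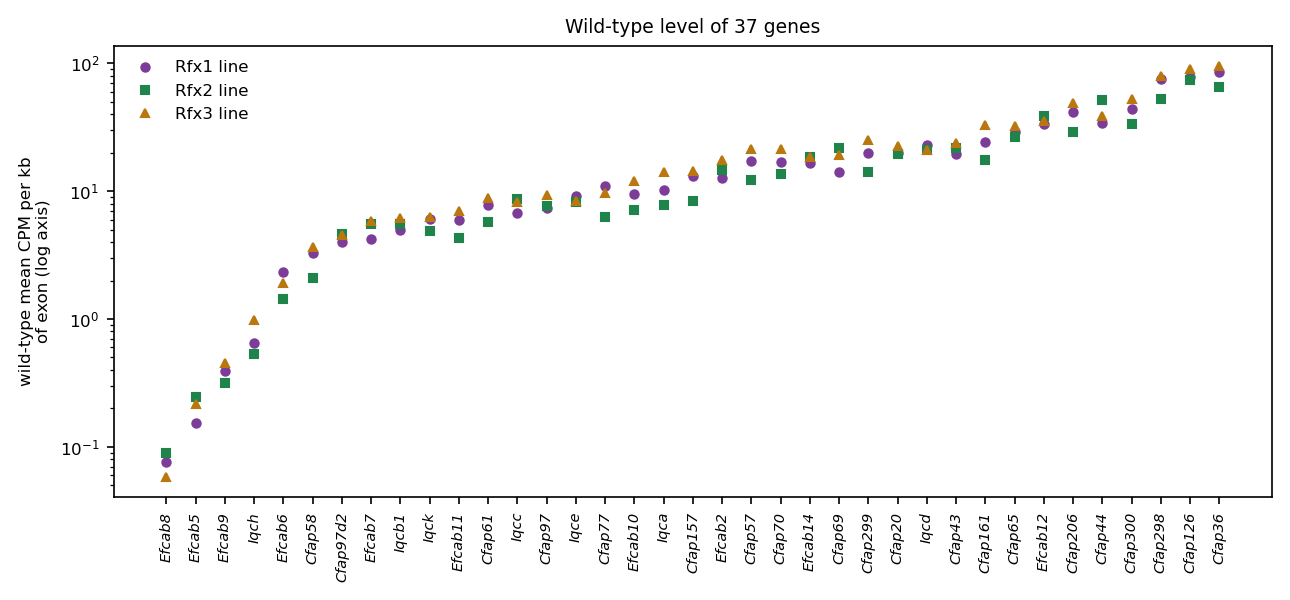
Mean wild-type level of each of the 37 genes in CPM per kb of exon (log axis), with a circle, square and triangle for the Rfx1, Rfx2 and Rfx3 lines. Levels run between 0.058 CPM per kb for Efcab8 and 95.4 CPM per kb for Cfap36.

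Most of these genes fell in Rfx2 knockout and in Rfx3 knockout cells, and none of those tested passed the threshold in Rfx1 knockout cells. Of 37 genes tested in the Rfx2 line, 32 fell and 0 rose, with a median log2 difference of −0.76, where 18.4% of all genes tested fell and 13.9% rose. Of 36 tested in the Rfx3 line (Efcab8 did not pass the filter), 28 fell and 0 rose, with a median of −1.04, where 12.9% of all genes tested fell and 10.6% rose. The median over all genes tested was 0.01 in the Rfx2 line and 0.02 in the Rfx3 line. Of 35 tested in the Rfx1 line (Efcab8 and Efcab9 did not pass the filter), 0 fell and 0 rose in edgeR, in DESeq2 and in limma-voom, where 0.00723% of all genes fell and 0% rose in edgeR. There 1 gene, Efcab11, had an unadjusted p below 0.05, where 2.03% of all genes did.

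Groups were cleanly apart for many of these genes. In the Rfx2 line all 6 knockouts lay below all 8 wild types for 18 of 37 genes, where this held for 6.93% of all genes tested. In the Rfx3 line all 6 knockouts lay below all 6 wild types for 27 of 36 genes, where this held for 9.83% of all genes tested. In the Rfx1 line the same held for 1 of 35 genes, Efcab11, where it held for 0.716% of all genes tested. Without the libraries at 10 CPM of Pdgfra or more, this held for 27 of 37 genes in the Rfx2 line, where 16.8% of all genes did so, and for 27 of 36 genes in the Rfx3 line, where 17.7% did so. The 11 genes of the same names that were set aside went the same way. Of them, 9 fell in the Rfx2 line, 11 fell in the Rfx3 line and 0 were called in the Rfx1 line. Their medians were −0.90, −1.37 and −0.05. Over all genes tested, 18.4%, 12.9% and 0.00723% fell in these lines. Without the Pdgfra-high libraries, 10 of these 11 were lower in the Rfx2, 8 in the Rfx3 and 0 in the Rfx1 line. Of all genes, 15%, 3.65% and 0.0362% were then lower.

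The counts depended on the libraries in the Rfx3 line more than in the Rfx2 line. Without the libraries at 10 CPM of Pdgfra or more, 27 genes fell in the Rfx2 line (3 knockouts against 5 wild types), where 15% of all genes fell. In the Rfx3 line 16 fell, where 3.65% of all genes fell and knockout replicates 2 and 3 are left against 5 wild types. The Rfx3 knockouts left out include replicates 4 to 6, which were also low in Foxj1 and Mcidas. Which of these traits, or the smaller group, bears on the count was not tested. Without Rfx3 knockout replicate 3, the one in which long genes were low, 33 genes fell, and Cfap298, Cfap299, Cfap36, Iqcc and Iqck were those gained. Calls over all genes also rose in number there, with 2844 of 14450 genes lower, against 1857 of 14340 with replicate 3 included. Without any one of Rfx3 knockouts 4 and 5 and Rfx3 wild types 3 and 5, 21 fell, where 1289 to 1462 of all genes tested fell. Of the genes that fell, 30 of 32 in the Rfx2 and 21 of 28 in the Rfx3 line did so whichever single library was left out. The exceptions were Cfap97d2 and Efcab8 in the Rfx2 line and Cfap161, Cfap20, Cfap206, Efcab10, Efcab11, Efcab7 and Iqcb1 in the Rfx3 line.

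**Figure D2:**
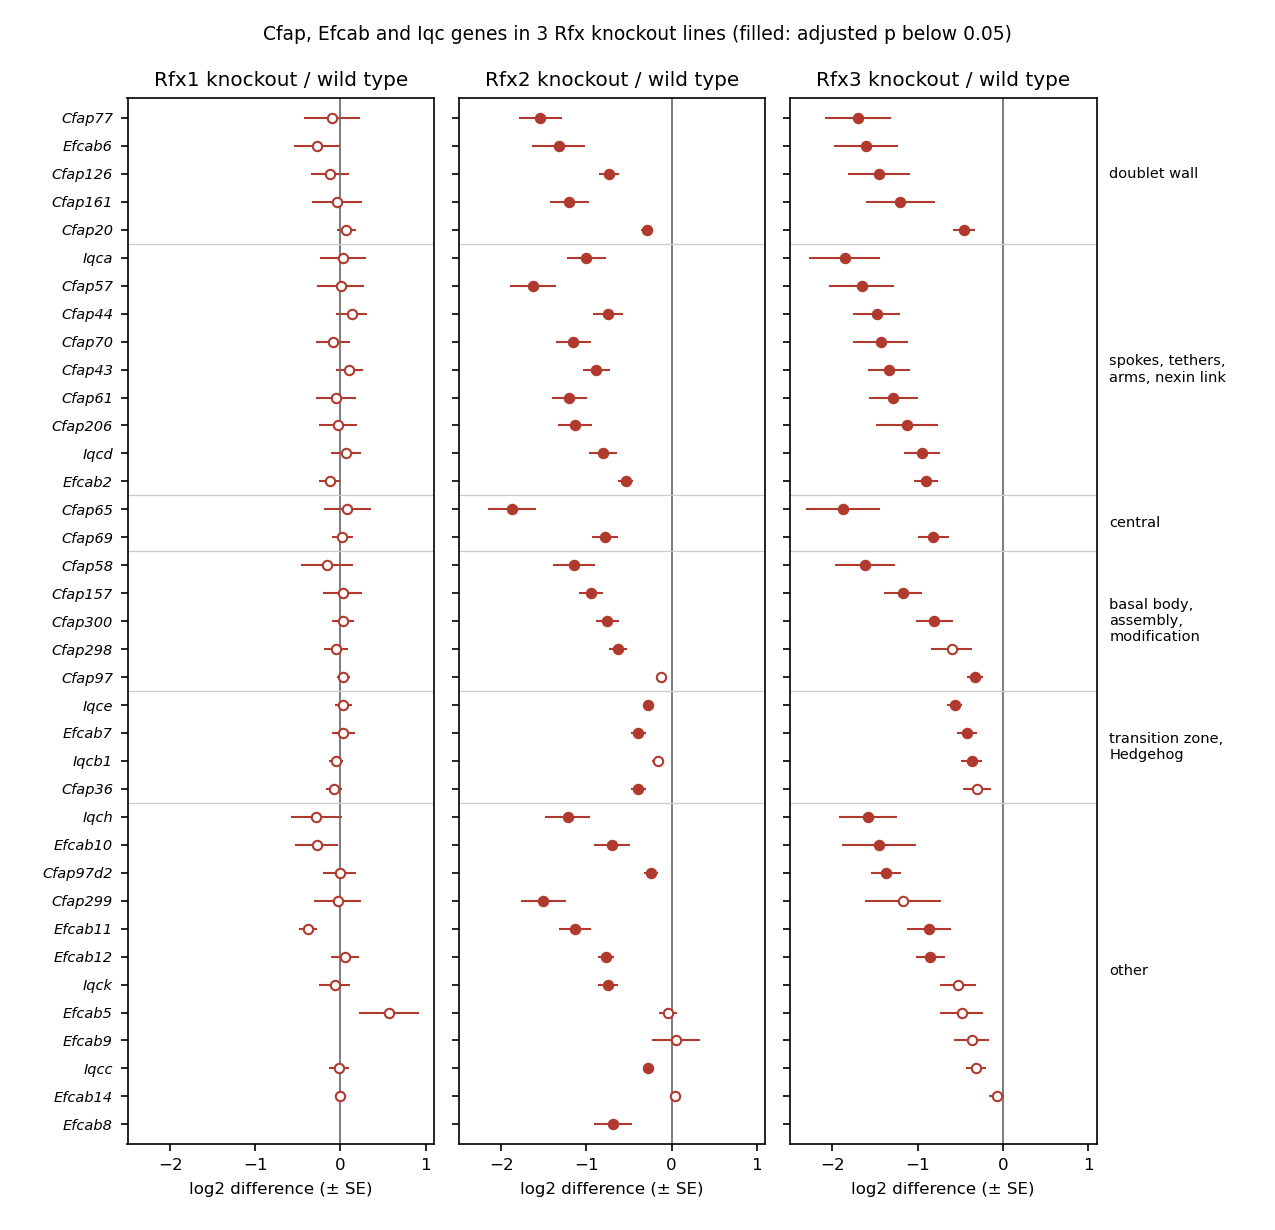
Log2 difference of knockout over wild type with its standard error for each gene (rows, grouped by role) in the Rfx1, Rfx2 and Rfx3 lines (panels from left to right). Filled points have an adjusted p below 0.05: 0 of 35 in the Rfx1 line, 32 of 37 in the Rfx2 line and 28 of 36 in the Rfx3 line, each of them lower in the knockout.

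Sequence in front of the genes was read from RefSeq promoters of the build GRCm38.p6, which cover 250 bases before to 50 after the start and matched 28 of the 37 genes (31 promoters). A full X-box, searched on both strands as GTNNCC and GGNAAC with 1 or 2 bases between them, was found in 4 of the 31 (12.9%), against 1.9% of all 32851 promoters. The half-site GTTGCC, which overlaps the full motif, was counted with or without a full X-box in the same promoter. It was found in 11 (35.5%), among them those of Iqca, Cfap298 and Cfap58, against 12.5% of all promoters. The forkhead motif TGTTTAC was found in 2 (6.45%), those of Cfap20 and Cfap43, against 3.65%. The 4 full matches are shown with 20 bases on either side, the match in capitals, each read 5′ to 3′ on the gene's own strand.
Iqca, chr1:90153503-90153556, minus strand: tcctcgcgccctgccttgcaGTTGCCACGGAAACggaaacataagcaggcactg
Cfap206, chr4:34730196-34730249, minus strand: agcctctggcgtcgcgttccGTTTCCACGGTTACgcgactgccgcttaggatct
Cfap298, chr16:90935004-90935057, minus strand: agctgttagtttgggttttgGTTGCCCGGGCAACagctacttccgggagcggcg
Cfap58, chr19:47937633-47937685, plus strand: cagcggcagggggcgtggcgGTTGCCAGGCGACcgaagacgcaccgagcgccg
The matches begin 100, 23, 188 and 59 bases before the RefSeq start of Iqca, Cfap206, Cfap298 and Cfap58. In GENCODE M21 Cfap298 starts farther out, at chr16:90935114 on the minus strand, so its match lies inside the gene there. These 4 genes fell in the Rfx2 knockout, by 1.0, 1.14, 0.63 and 1.15 on the log2 scale, and Iqca, Cfap206 and Cfap58 fell in the Rfx3 knockout, by 1.86, 1.13 and 1.62. The median difference of these 4 genes was −1.07 in the Rfx2 and −1.37 in the Rfx3 line. For genes with the half-site only (8 tested in the Rfx2 and 7 in the Rfx3 line) it was −0.69 and −1.20. For the 16 genes with neither X-box form it was −0.78 and −0.86. Ranges in the Rfx2 line were −1.15 to −0.63 (full), −1.20 to 0.05 (half-site only) and −1.63 to 0.04 (neither). In the Rfx3 line they were −1.86 to −0.60, −1.48 to −0.37 and −1.70 to −0.07, so the classes overlapped in both lines. Looser spellings of the X-box were not searched, so the 16 genes with neither form cannot be taken to lack one. The part of the X-box in the falls was not tested. A match is a run of letters and not a bound site.

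Genes of the doublet wall fell without exception, 5 of 5 in the Rfx2 and 5 of 5 in the Rfx3 knockout. In each line 4 of 5 fell without the Pdgfra-high libraries, the call of Cfap20 being lost. Cfap77 (chr2:28926949-29055066, minus strand), which codes for a protein inside the doublet, had lowest, median and highest levels of 4.91, 5.56 and 6.78 CPM in Rfx2 knockouts and 7.77, 16.0 and 28.6 CPM in Rfx2 wild types. In the Rfx3 line it had 2.36, 7.63 and 13.1 CPM in knockouts and 19.2, 23.3 and 35.2 CPM in wild types. The groups did not overlap in either line, with log2 differences of −1.54 (SE 0.25, edgeR adjusted p = 0.000494) in the Rfx2 and −1.70 (SE 0.39, adjusted p = 0.00964) in the Rfx3 line. Efcab6, another protein of the doublet lumen, had 2.91, 3.38 and 5.13 CPM in Rfx2 knockouts and 3.42, 8.12 and 18.7 CPM in Rfx2 wild types. It had 1.22, 3.40 and 7.30 CPM in Rfx3 knockouts and 9.08, 11.4 and 18.49 CPM in Rfx3 wild types. Its ranges overlapped in the Rfx2 line, where 3 of 6 knockouts lay below all wild types, and not in the Rfx3 line; it fell by 1.33 and by 1.61 on the log2 scale.

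Cfap161, also placed inside the doublet, had 19.5, 24.9 and 28.2 CPM in Rfx2 knockouts and 30.8, 57.6 and 96.1 CPM in Rfx2 wild types. The Rfx3 line had 12.7, 42.1 and 82.1 CPM in knockouts and 89.4, 103 and 119 CPM in wild types. It fell by 1.20 on the log2 scale in both lines, with a standard error of 0.23 in the Rfx2 and 0.40 in the Rfx3 line, where the adjusted p was 0.0475. That call was lost on leaving out any one of 9 of the 12 Rfx3 libraries (adjusted p up to 0.0924), and with no low-count filter (0.0530). Cfap126 fell by 0.74 in the Rfx2 and by 1.46 in the Rfx3 line. Cfap20, which seals the inner junction of the doublet, had the smallest fall of the group, to 71.5 ± 7.37 CPM in Rfx2 knockouts (n = 6), against 87.5 ± 8.64 CPM in Rfx2 wild types (n = 8), and to 73.2 ± 17.6 CPM in Rfx3 knockouts, against 100 ± 3.65 CPM in Rfx3 wild types (SD, n = 6 each).

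Genes for spokes, tethers, dynein arms and the nexin link fell in 9 of 9 cases in each of these lines. Without the Pdgfra-high libraries 9 of 9 fell in the Rfx2 and 7 of 9 in the Rfx3 line, where the calls of Cfap44 and Iqcd were lost (edgeR adjusted p = 0.0918 and 0.0624). Iqca (chr1:90042132-90153401, minus strand) codes for DRC11 of the nexin link and had 13, 16.8 and 19.5 CPM as lowest, median and highest in Rfx2 knockouts and 16.8, 35.3 and 56.5 CPM in Rfx2 wild types. In the Rfx3 knockouts it was at 34, 27.5 and 19.1 CPM in replicates 1 to 3 and at 7.02, 7.82 and 5.04 CPM in replicates 4 to 6, against 48.4 to 72.2 CPM in wild types. Each Rfx3 knockout lay below each wild type, and the log2 difference was −1.86 (SE 0.42, edgeR adjusted p = 0.00922) in the Rfx3 and −1.0 (SE 0.23, adjusted p = 0.00426) in the Rfx2 line. The other nexin-link genes fell less: Iqcd (DRC10) by 0.81 in the Rfx2 and 0.95 in the Rfx3 line, and Efcab2 (DRC8) by 0.54 and 0.90. Efcab2 had 39.1, 41.1 and 46.0 CPM in Rfx2 knockouts and 44.2, 63.1 and 72.9 CPM in Rfx2 wild types, and 31.1, 34.5 and 50.4 CPM in Rfx3 knockouts and 63.0, 74.0 and 82.2 CPM in Rfx3 wild types. One Rfx2 knockout overlapped the wild types and no Rfx3 knockout did. Of Iqcd, 16.0% of exon bases are shared with Rita1 on the opposite strand, and whether counting used strand is not given.

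Cfap57 (chr4:118554551-118620777, minus strand), a protein linked to inner dynein arms, had the second largest fall in the Rfx2 line. It had 13.3, 16.1 and 18.8 CPM in Rfx2 knockouts and 23.5, 47.6 and 91.4 CPM in Rfx2 wild types, and 8.22, 21.1 and 51.3 CPM in Rfx3 knockouts and 72.7, 84.5 and 102 CPM in Rfx3 wild types. The groups did not overlap, and it fell by 1.63 (SE 0.27) in the Rfx2 and by 1.65 (SE 0.38) in the Rfx3 line, to 32.4% and 31.8% of the wild-type level. Its promoter is shown because none of the motifs, in the exact forms searched, is among its letters (chr4:118620736-118621035, minus strand, GRCm38.p6). Looser spellings of the X-box were not searched, so it is not shown to lack one.
Cfap57: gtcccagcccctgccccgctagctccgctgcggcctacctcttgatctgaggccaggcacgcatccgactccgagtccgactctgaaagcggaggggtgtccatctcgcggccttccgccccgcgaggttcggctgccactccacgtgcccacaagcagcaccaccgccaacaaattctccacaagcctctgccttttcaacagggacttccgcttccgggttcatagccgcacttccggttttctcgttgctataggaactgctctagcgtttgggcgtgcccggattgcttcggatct

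Cfap44 and Cfap43 code for partners in the tether of the inner arm dynein f. Cfap44 had 196, 264 and 306 CPM in Rfx2 knockouts and 238, 448 and 573 CPM in Rfx2 wild types, with overlap. The Rfx3 knockouts were at 171, 189, 49.5, 104, 107 and 76.4 CPM in replicates 1 to 6, against 266 to 406 CPM in wild types, and its lowest value came from replicate 3, the library in which long genes were low. Cfap44 fell by 0.75 in the Rfx2 and by 1.48 in the Rfx3 line, and Cfap43 by 0.88 and by 1.34. Cfap61 and Cfap206, both linked to radial spokes, fell by 1.20 and 1.14 in the Rfx2 line and by 1.28 and 1.13 in the Rfx3 line. The Rfx3 call of Cfap206 was lost on leaving out any one of 9 of the 12 libraries (adjusted p up to 0.0829). Cfap61 had 22.7, 26.7 and 29.0 CPM in Rfx2 knockouts and 34.1, 62.2 and 98.6 CPM in Rfx2 wild types, and 17.2, 29.9 and 68.6 CPM in Rfx3 knockouts and 80.2, 90.2 and 106 CPM in Rfx3 wild types. These groups did not overlap. Cfap70, a protein of the outer dynein arm, fell by 1.15 and by 1.43.

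The 2 genes of the central apparatus fell in both lines. Both also fell in the Rfx2 line without the Pdgfra-high libraries, and neither then passed in the Rfx3 line. Cfap65 (chr1:74902071-74935599, minus strand) had the largest fall of the 37 genes in each. It was at 43.0, 67.3, 57.7, 64.1, 56.9 and 49.6 CPM in Rfx2 knockout replicates 1 to 6, against 94.1 CPM as lowest, 202 CPM as median and 392.4 CPM as highest in Rfx2 wild types. Rfx3 knockout replicates 1 to 6 had 135, 133, 52.6, 36.1, 38.2 and 16.7 CPM, against 219, 234, 291, 212, 251 and 308 CPM in Rfx3 wild types. The groups did not overlap in either line, and the Rfx3 knockouts spread far more widely among themselves than the Rfx2 knockouts. Cfap65 fell by 1.87 (SE 0.28, edgeR adjusted p = 0.000288) in the Rfx2 and by 1.88 (SE 0.43, adjusted p = 0.0101) in the Rfx3 line, and without the Pdgfra-high libraries the Rfx3 difference was −1.38 with an adjusted p of 0.0507. Cfap69 fell by 0.78 and by 0.81, and its Rfx3 adjusted p was 0.0662 without those libraries.

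**Figure D3:**
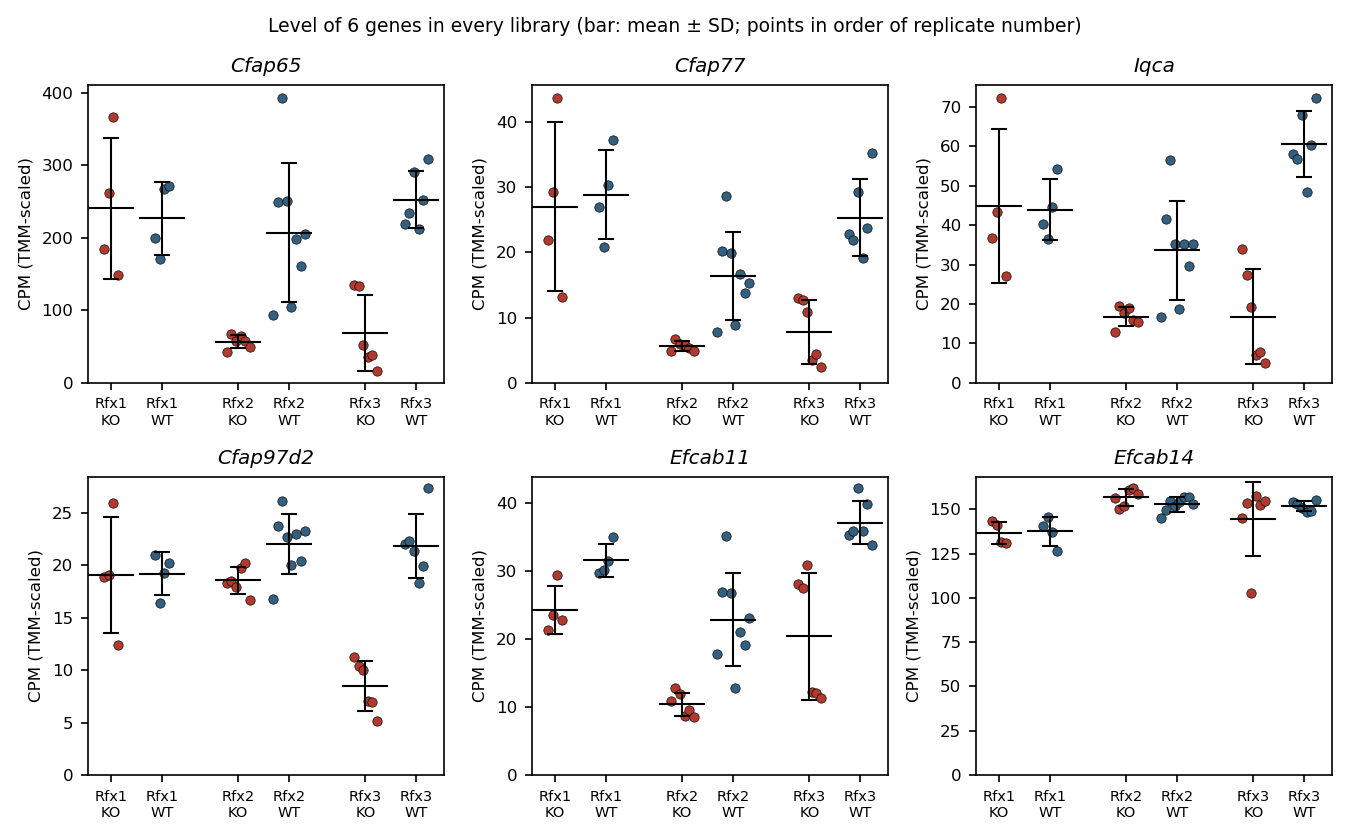
Level in CPM of Cfap65, Cfap77, Iqca, Cfap97d2, Efcab11 and Efcab14 in every library, knockouts (red) left of wild types (blue) of the same line, with bars for the mean ± SD. Cfap65, Cfap77 and Iqca are low in Rfx2 and Rfx3 knockouts, and Cfap97d2 is low in the 6 Rfx3 knockouts (5.19 to 11.2 CPM). In the Rfx2 knockouts (16.7 to 20.2 CPM) Cfap97d2 fell less and overlaps the wild types. Efcab14 is level except in Rfx3 knockout replicate 3 (103 CPM).

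Genes of basal bodies, axoneme assembly and tubulin modification fell in 4 of 5 cases in each line, though not the same 4. Without the Pdgfra-high libraries 4 of 5 fell in the Rfx2 and 2 of 5, Cfap157 and Cfap58, in the Rfx3 line. Cfap58, a coiled-coil protein known from the sperm flagellum, had 2.72, 3.30 and 3.91 CPM in Rfx2 knockouts and 3.97, 6.87 and 13.4 CPM in Rfx2 wild types, and 1.65, 3.6 and 7.35 CPM in Rfx3 knockouts and 10.4, 12.2 and 17.0 CPM in Rfx3 wild types. The groups did not overlap, with falls of 1.15 and 1.62 on the log2 scale. Cfap157, a basal body protein, fell by 0.95 and 1.17, and Cfap300, which acts in dynein arm assembly, by 0.76 and 0.80. Cfap298, another assembly factor, fell by 0.63 in the Rfx2 line. In the Rfx3 line Cfap298 had a like difference of −0.60 with an SE of 0.24 and an adjusted p of 0.0854. Of its exon bases 53.6% are shared with genes on the opposite strand, so its counts are uncertain.

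Cfap97, whose fly counterpart is the axonemal protein Hemingway, had 33.8, 36.3 and 40.2 CPM in Rfx2 knockouts and 35.1, 40.1 and 43.4 CPM in Rfx2 wild types, with overlap and an adjusted p of 0.0789. Rfx3 knockouts had 43.1, 41.2, 28.1, 37.7, 40.7 and 37.5 CPM in replicates 1 to 6, against 49.7, 49.3, 49.0, 46.7, 46.1 and 45.8 CPM in Rfx3 wild types. The Rfx3 groups did not overlap, and Cfap97 fell by 0.33 (SE 0.09, edgeR adjusted p = 0.0206). Replicate 3 was again the lowest, and without the Pdgfra-high libraries the adjusted p was 0.0792.

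Of 4 genes of the transition zone and of Hedgehog signalling at the cilium base, 3 fell in the Rfx2 and 3 in the Rfx3 knockout, by small amounts. With the Pdgfra-high libraries left out, 2 of 4, Cfap36 and Iqce, fell in the Rfx2 and 0 of 4 in the Rfx3 line. Iqce, which with Efcab7 anchors the EVC complex that carries the Smoothened signal, had 80.2, 82.5 and 85.3 CPM in Rfx2 knockouts and 80.7, 100 and 116 CPM in Rfx2 wild types. Rfx3 knockouts and wild types did not overlap, as it had 56.0, 64.3 and 82.3 CPM in knockouts and 94.6, 98 and 109 CPM in wild types. It fell by 0.27 and by 0.57, and Efcab7 fell by 0.39 and by 0.42. Iqcb1 (NPHP5, a transition zone protein) had 24.5, 26.2 and 28.6 CPM in Rfx2 knockouts and 24.9, 29.1 and 34.8 CPM in Rfx2 wild types, with an adjusted p of 0.0899. It had 20.7, 24.0 and 34.6 CPM in Rfx3 knockouts and 30.9, 33.0 and 35.9 CPM in Rfx3 wild types. It fell by 0.37 in the Rfx3 line, where 5 of 6 knockouts lay below all wild types (edgeR adjusted p = 0.0417). That call was lost on leaving out any one of 10 of the 12 Rfx3 libraries (adjusted p up to 0.0906) and without the Pdgfra-high libraries (0.388). Cfap36 fell by 0.39 in the Rfx2 line and differed by −0.31 (SE 0.16, adjusted p = 0.196) in the Rfx3 line.

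Of the 12 genes that are known from sperm or have no assigned role here, 9 of 12 fell in the Rfx2 and 5 of 11 in the Rfx3 knockout. Without the Pdgfra-high libraries 6 of 12 fell in the Rfx2 line, and 3 of 12 (Cfap97d2, Efcab12 and Iqch) fell in the Rfx3 line. Cfap299 had 4.93, 7.40 and 8.77 CPM in Rfx2 knockouts and 9.33, 19.2 and 36.6 CPM in Rfx2 wild types and fell by 1.51 (SE 0.26). Levels in Rfx3 knockouts were 26.6, 22.3, 31.1, 5.84, 6.81 and 3.82 CPM in replicates 1 to 6, against 32.5 to 40.6 CPM in Rfx3 wild types. Each knockout lay below each wild type, but the knockouts spread so widely that the log2 difference of −1.18 had an SE of 0.45 and an adjusted p of 0.0742; it passed in DESeq2 (adjusted p = 0.0287) and limma-voom (adjusted p = 0.0128). Of its exon bases 19.1% are shared with another gene on the same strand.

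Iqch had 0.895, 1.75 and 1.83 CPM in Rfx2 knockouts and 1.68, 3.80 and 5.94 CPM in Rfx2 wild types, and 1.08, 1.81 and 3.98 CPM in Rfx3 knockouts and 5.85, 6.76 and 7.61 CPM in Rfx3 wild types. It fell by 1.22 and by 1.58, without overlap in the Rfx3 line. Efcab10 had 2.36, 2.89 and 3.58 CPM in Rfx2 knockouts and 2.57, 4.98 and 7.29 CPM in Rfx2 wild types. Its Rfx3 levels were 0.669, 2.54 and 6.32 CPM in knockouts and 7.06, 7.84 and 9.32 CPM in wild types, without overlap. Efcab10 fell by 0.70 and by 1.46, and Efcab12 by 0.77 and by 0.85. Efcab12 had the smallest p of the 37 genes in the Rfx2 line (edgeR adjusted p = 7.88e-05), and its 6 knockouts lay below its 8 wild types.

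Efcab11 was the gene nearest to a difference in the Rfx1 line. It had 21.3, 23.5, 29.4 and 22.7 CPM in Rfx1 knockouts and 29.7, 30.2, 31.4 and 35.0 CPM in Rfx1 wild types, and the difference of −0.38 (SE 0.11) had an unadjusted edgeR p of 0.00615 and an adjusted p of 0.9998. The 4 knockouts lay below the 4 wild types, by a narrow margin for replicate 3. In the Rfx2 line it had 8.48, 10.2 and 12.7 CPM in knockouts and 12.9, 22 and 35.2 CPM in wild types and fell by 1.14. In the Rfx3 line it was at 28.1, 27.6, 30.9, 12.2, 12.1 and 11.3 CPM in knockout replicates 1 to 6, against 33.8 to 42.2 CPM in wild types, and fell by 0.87. The other genes with the smallest p in the Rfx1 line were Efcab5 and Efcab10. Efcab5 had 1.17, 0.702, 1.54 and 1.38 CPM in Rfx1 knockouts and 1.02, 0.357, 0.837 and 0.957 CPM in Rfx1 wild types (log2 difference 0.57, SE 0.35), and Efcab10 had 5.51, 4.97, 7.64 and 2.99 CPM in knockouts and 5.70, 5.76, 6.93 and 7.19 CPM in wild types (log2 difference −0.28, SE 0.25). Their groups overlapped.

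Among genes of at least 10 CPM in wild types, Efcab14 had the smallest difference in each of the Rfx2 and Rfx3 lines. Efcab14 had 150, 158 and 162 CPM in Rfx2 knockouts and 145, 154 and 157 CPM in Rfx2 wild types, which differ by 0.04 on the log2 scale (SE 0.03, adjusted p = 0.315). The Rfx3 knockouts were at 145, 154, 103, 158, 152 and 155 CPM in replicates 1 to 6, against 148 to 155 CPM in wild types, a difference of −0.07 (SE 0.09, adjusted p = 0.602). Replicate 3 was the one low library. Iqcc had 21.3, 22.9 and 24.8 CPM in Rfx2 knockouts and 23.6, 28.3 and 30.6 CPM in Rfx2 wild types and fell by 0.28, and in the Rfx3 line it had 16.3, 20.8 and 26.0 CPM in knockouts and 24.8, 26.2 and 27.6 CPM in wild types (log2 difference −0.31, adjusted p = 0.0778). Iqcc shares 11.9% of its exon bases with Tmem234 on the opposite strand. Iqck, which shares 15.9% of its exon bases with Gprc5b and Knop1 on the opposite strand, fell by 0.75 in the Rfx2 line and differed by −0.53 (SE 0.21, adjusted p = 0.085) in the Rfx3 line.

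The lowest-expressed genes gave the least certain values. Efcab8 averaged 0.316 ± 0.115 CPM in Rfx2 knockouts (n = 6) and 0.505 ± 0.0932 CPM in Rfx2 wild types (SD, n = 8), with an adjusted p of 0.0272 in edgeR and of 0.134 with the replicate number as a block. Efcab9, the CatSper gene, differed by 0.05 (SE 0.28) in the Rfx2 and by −0.37 (SE 0.21) in the Rfx3 line. Efcab5 had 1.09, 1.19 and 1.4 CPM in Rfx2 knockouts and 1.03, 1.28 and 1.47 CPM in Rfx2 wild types, and 0.349, 0.801 and 1.06 CPM in Rfx3 knockouts and 0.750, 1.12 and 1.43 CPM in Rfx3 wild types. Its adjusted p was 0.804 and 0.18, and its groups overlapped in both lines.

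Most genes that fell in one of these lines fell in the other. Of 36 genes tested in both lines, 31 fell in the Rfx2 and 28 in the Rfx3 knockout, and 26 fell in both, which is 83.9% of the Rfx2 list and 92.9% of the Rfx3 list. Of all 14086 genes tested in both lines 8.63% fell in both, which is 46.3% of those that fell in the Rfx2 and 66.8% of those that fell in the Rfx3 knockout. When the Pdgfra-high libraries were left out, 15 of the 37 genes fell in both, where 2.65% of all genes did. Cfap298, Cfap299, Cfap36, Efcab8, Iqcc and Iqck passed the test in the Rfx2 line alone and Cfap97 and Iqcb1 in the Rfx3 line alone. Across 36 genes the differences in the 2 lines, which have separate wild types, had a Pearson correlation of 0.81 and a Spearman correlation of 0.78, given as a description since the genes share libraries. For 29 of the 36 genes the fall was larger in the Rfx3 line and for 7 it was larger in the Rfx2 line.

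When the difference between the Rfx2 and Rfx3 effects was itself tested over the 34 libraries, 1 of 37 genes passed, where 3.84% of all genes did. That gene was Cfap97d2 (chr8:13705889-13743414, plus strand), so none passed among the genes whose names have no letters after the number. It was at 18.3, 18.48, 17.9, 19.8, 20.2 and 16.7 CPM in Rfx2 knockout replicates 1 to 6, against 16.8 CPM as lowest, 22.8 CPM as median and 26.2 CPM as highest in Rfx2 wild types. In Rfx3 knockouts it was at 11.2, 10.4, 10.04, 7.10, 6.93 and 5.19 CPM in replicates 1 to 6, against 22, 22.3, 21.3, 18.3, 19.9 and 27.4 CPM in Rfx3 wild types. The Rfx2 groups overlapped and the Rfx3 groups did not. Rfx3 knockout replicates 1 to 3 were also below each wild type for this gene. The log2 difference was −0.25 (SE 0.08, edgeR adjusted p = 0.0352, and 0.0945 with the replicate number as a block) in the Rfx2 line and −1.37 (SE 0.18, adjusted p = 0.000781) in the Rfx3 line. The difference between the 2 effects was 1.13 on the log2 scale (SE 0.20, adjusted p = 0.000714), and it was 0.78 with an adjusted p of 0.0525 without the Pdgfra-high libraries. In the Rfx1 line Cfap97d2 had 18.9, 19.1, 26.0 and 12.4 CPM in knockouts and 21, 16.4, 19.3 and 20.2 CPM in wild types. Its name is close to that of Cfap97, and it has no assigned role here.

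The promoter of Cfap97d2 is shown because of this difference between lines (chr8:13705639-13705938, plus strand, GRCm38.p6). In capitals is GGCAAC, which is the X-box half-site GTTGCC read from the other strand, 19 bases before the start. No full X-box of the exact form searched was among the letters, and looser spellings were not searched.
Cfap97d2: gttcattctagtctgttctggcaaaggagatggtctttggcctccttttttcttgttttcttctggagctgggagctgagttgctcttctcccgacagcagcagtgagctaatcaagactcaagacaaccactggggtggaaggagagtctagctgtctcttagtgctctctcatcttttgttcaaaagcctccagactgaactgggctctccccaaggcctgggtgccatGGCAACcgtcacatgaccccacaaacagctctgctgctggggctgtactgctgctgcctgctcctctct

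**Figure D4:**
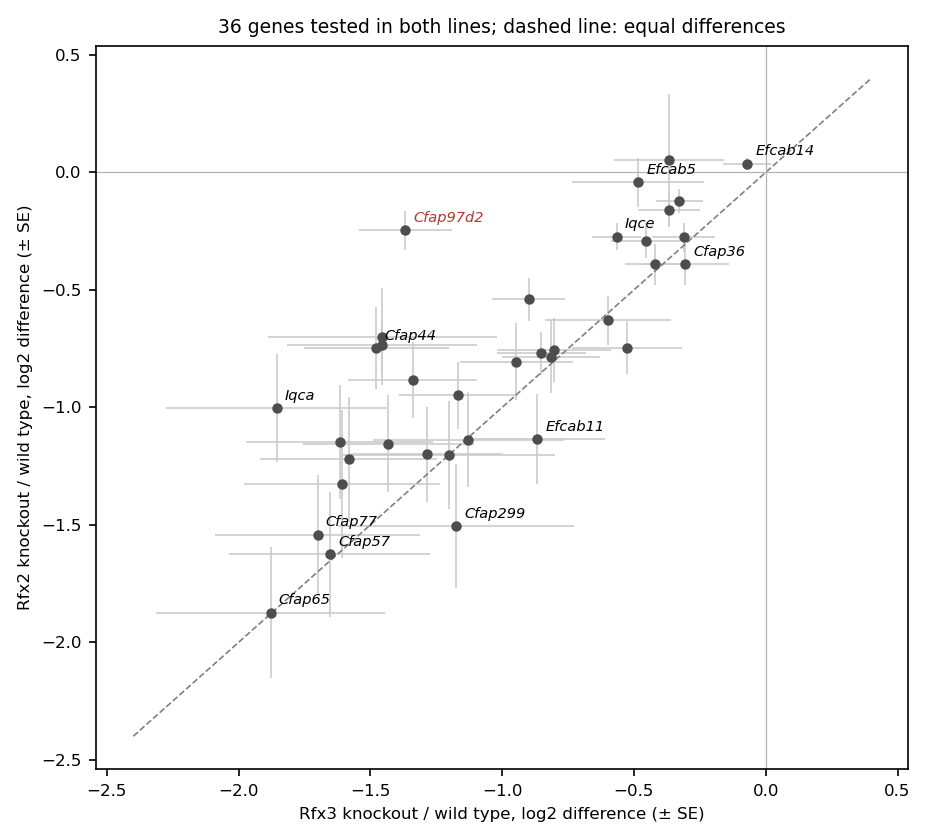
Log2 difference of knockout over wild type in the Rfx2 line (vertical) against the Rfx3 line (horizontal) for the 36 genes tested in both, with standard errors. Points below the dashed line of equal differences fell more in the Rfx2 line (7 genes) and points above it fell more in the Rfx3 line (29 genes); Cfap97d2, at −0.25 and −1.37, lies farthest above it.

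The Rfx1 effects were compared with the others in the same way. Against the Rfx3 effect, 14 of 37 genes differed, where 7.75% of all genes did, each with the Rfx3 knockout the lower. They were Cfap126, Cfap157, Cfap43, Cfap44, Cfap57, Cfap65, Cfap70, Cfap97, Cfap97d2, Efcab12, Efcab2, Iqca, Iqcd and Iqce. Without the Pdgfra-high libraries 0 of 37 differed, with adjusted p-values for these 14 genes between 0.0523 and 0.171. Of the Rfx3 knockouts, replicates 2 and 3 alone are left in that fit. Against the Rfx2 effect 0 of 37 differed, where 0.829% of all genes did, while 22 had an unadjusted edgeR p below 0.05, where 14.2% of all genes did, and the smallest adjusted p was 0.0756, for Efcab12. The difference between Rfx1 and Rfx2 effects in these genes was therefore not shown, although 32 of them fell in one line and 0 in the other.

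The level of the 37 genes as a set varied within groups. Their mean log2 difference from the wild-type mean was −0.16, −0.05, 0.40 and −0.42 in Rfx1 knockouts 1 to 4, and −0.18 to 0.18 in Rfx1 wild types. In Rfx2 knockouts it was −0.87 to −0.62, and in Rfx2 wild types −0.48 to 0.50, with wild types 1 and 5 lowest at −0.48 and −0.43. The Rfx3 knockouts had −0.47, −0.53 and −0.78 in replicates 1 to 3 and −1.49, −1.42 and −1.79 in replicates 4 to 6, against −0.13 to 0.13 in Rfx3 wild types. The order of the 6 Rfx3 knockouts by this mean was the same as their order by Foxj1, with replicate 1 highest and replicate 6 lowest in both, and Rfx1 knockouts 3 and 4 were the highest and lowest of their group for both measures. Whether Foxj1 or cell makeup bears on the levels of these genes was not tested.

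**Figure D5:**
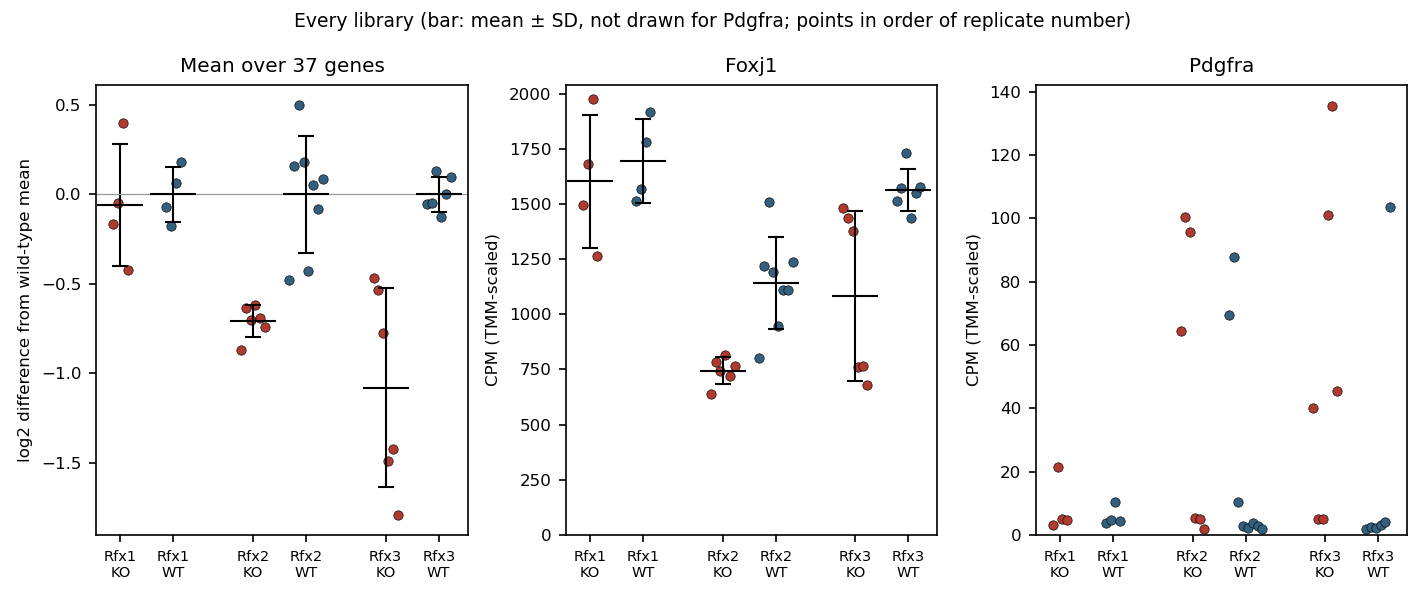
Mean log2 difference of the 37 genes from the wild-type mean of the line, Foxj1 and Pdgfra (CPM) in every library, knockouts (red) left of wild types (blue). Rfx3 knockout replicates 4 to 6 are low for both the 37 genes (−1.42 to −1.79) and Foxj1 (680 to 764 CPM), and Pdgfra is scattered within groups.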

How the data were processed

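RNA was extracted with RNeasy Midi columns and sequenced from TruSeq libraries, per the labels' protocols. The authors deposited raw counts of reads per gene for 34 libraries in 1 table. The submitters' processing notes name CASAVA 1.8.2, STAR 2.4, featureCounts 1.4.6 and the genome GRCm38; no source used here gives the annotation, strand setting or handling of multi-mapping reads. Symbols were taken from GENCODE M21 by Ensembl ID (21583 matched, 64 did not and held 0.0341% to 0.0417% of counts). Antisense overlap is stated from the same annotation, and is not reported here for every gene.

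Knockouts were tested against the wild types of their line in edgeR 4.0.16 (filterByExpr with minimum count 10 and minimum total 15, TMM scaling, quasi-likelihood F test, two-sided, Benjamini-Hochberg over all genes, threshold 0.05), run in R 4.3.3. The code was also tried on simulated counts. Those had the same spread setting for every gene and group, so the trial does not cover groups as uneven as the Rfx3 knockouts. Differences between lines were contrasts in 1 fit of the 34 libraries. Alternatives were DESeq2 1.42.0, limma-voom (limma 3.58.1), RLE scaling, no filter, the replicate number as a block, all groups in 1 fit, each library left out, and libraries with high Pdgfra left out. The last was added for the Rfx1 and Rfx3 lines, the contrasts and the counts by role, overlap and shared call after the data were seen. Replicate numbers come from the sample titles. In the Rfx2 line, deviations of same-numbered knockout and wild-type libraries from their group means correlated at 0.16 to 0.61 in the 6 pairs. The same-numbered wild type was the best match for knockouts 1, 2 and 4 and not for knockouts 3, 5 and 6. No label says that the numbers pair libraries, and these values do not settle it. The main test had no block, and the block was run as an alternative. The count totals of 18.2 to 53.4 M limit the precision for low genes. Per-library means used log2(CPM + 0.5).

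Values of every library were given, by rule, for the 8 largest falls in the Rfx2 or Rfx3 line, the 5 smallest p in their difference, the 3 smallest p in the Rfx1 line, and the 4 well-expressed genes with the smallest differences. Other genes were named with a level, a difference or an adjusted p. The naming rule, role groups and marker lists were chosen with earlier results of these data known.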

Additional observations from a re-analysis of the deposited data

Results flagged for a closer look

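In Rfx3 knockout replicate 3, Cfap97 (28.1 CPM) and Efcab14 (103 CPM) lay below the 5 other knockouts by more than Dixon's 95% limit for a single stray value. In Rfx2 knockout replicate 1, Cfap298 (46.1 CPM) lay below the 5 other knockouts in the same way. This test was made in 222 groups of libraries (37 genes in 6 groups), of which chance marks about 1 in 20. The 3 marked are below that share, so they are not set apart from chance. Rfx3 knockout replicate 3 was the library in which long genes were low, and the part of that in its 2 values was not tested.

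The Rfx2 and Rfx3 effects differed for Cfap97d2, by 1.13 on the log2 scale. The Rfx1 and Rfx3 effects differed for 14 genes, each lower in the Rfx3 knockout. The difference, Rfx1 minus Rfx3 effect, was 1.95 for Cfap65, 1.88 for Iqca, 1.65 for Cfap57, 1.60 for Cfap44 and 1.44 for Cfap43. It was 1.35 for Cfap97d2, 1.34 for Cfap70, 1.32 for Cfap126, 1.19 for Cfap157 and 1.0 for Iqcd. It was 0.90 for Efcab12, 0.77 for Efcab2, 0.59 for Iqce and 0.35 for Cfap97.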

How the results depend on the processing

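In the Rfx1 line 0 genes were called under every alternative run, the replicate block included. In the Rfx2 line 30 to 33 genes fell when each library was left out in turn, where 2266 to 2783 of all genes tested fell. There 30 fell with the replicate block, 28 with all groups in 1 fit and 27 without the Pdgfra-high libraries. In the Rfx3 line 21 to 33 fell when each library was left out, where 1289 to 2844 of all genes tested fell. There 29 fell with the block, 32 in limma-voom and 33 with all groups in 1 fit. Without the Pdgfra-high libraries, where 2 Rfx3 knockouts are left, 16 fell. Under every alternative run, 27 of the 32 Rfx2 calls and 14 of the 28 Rfx3 calls held. No gene rose under any of these. For the difference of Rfx2 and Rfx3 effects, 1 to 3 genes passed when each library was left out, 3 without Rfx3 knockout 2, and Cfap97d2 was called each time; without the Pdgfra-high libraries Efcab11 passed (−0.86, adjusted p = 0.0464) in place of Cfap97d2. The Rfx1 minus Rfx2 count was 0 to 2 and the Rfx1 minus Rfx3 count 4 to 24, lowest without Rfx1 knockout 3 and highest without Rfx3 knockout 1, with 15 under the block and 0 without the Pdgfra-high libraries. The cause was not tested. Correlations of same-numbered libraries were −0.09 to 0.45 in the Rfx1 line and −0.36 to 0.20 in the Rfx3 line. In these lines the same-numbered wild type was the best match for Rfx1 knockouts 1 and 4 and Rfx3 knockout 3 alone. The block ended the calls of Cfap97d2 and Efcab8 in the Rfx2 line and no other there. Genes under about 1 CPM are limited by depth.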
